A study of Mus musculus with 6 samples.

Results

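Plvap, the 2 caveolins Cav1 and Cav2, the 3 cavins Ptrf, Sdpr and Prkcdbp, and the 3 caveolar neck proteins Ehd2, Pacsin2 and Dnm2 were followed in endothelial cells that had been sorted on CD31 from embryonic mouse brains. These 9 genes were taken by symbol from deposited tables of 22958 RefSeq gene entries. Ptrf, Sdpr and Prkcdbp are the older symbols of Cavin1, Cavin2 and Cavin3. Each of the 9 had 1 entry, and all 9 were among the 12661 genes with enough reads to be tested.

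RNA sequencing had been made from 3 control libraries and 3 libraries of cells that overexpress Axin1, the scaffold on which beta-catenin is phosphorylated and sent for degradation. The controls carried the modification written as Cdhrs5CreERT2:R26Axin1IL-/- and the others Cdhrs5CreERT2:R26Axin1IL+/-, so that a tamoxifen-inducible Cre is named for both groups and the Axin1 allele at R26 differs. All embryos were of the strain C57BL/6 x 129/Sv at E11.5, and every mother had been given tamoxifen at E9.5. The labels call the libraries biological replicates but name no litter or pool, so p-values measure the spread between these libraries only. The study asked how expression in brain endothelium changes when Axin1 is overexpressed.

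Caveolae are flask-shaped pits of the plasma membrane, built by oligomers of caveolin in the membrane and a coat of cavins on its inner face. The ATPase EHD2, the membrane-bending protein pacsin 2 and the GTPase dynamin 2 act at the neck of the pit, where it is held at the surface or cut off as a vesicle. PLVAP, the antigen of the MECA-32 antibody, forms the diaphragms of caveolae and fenestrae. Brain vessels carry PLVAP early in development and lose it as the blood-brain barrier forms, and beta-catenin signalling is known to restrain it there.

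Libraries held 10772492 to 14234409 reads on genes, of which the 9 genes took 0.219% to 0.280%. Axin1 read 25.0, 17.5 and 20.8 CPM (read counts scaled to a common library size, with TMM factors for composition) in controls 1, 2 and 3. It read 79.7, 62.1 and 66.1 CPM in Axin1 libraries 1, 2 and 3, so the labels hold for the targeted gene. The endothelial label held too: all 16 pan-endothelial markers were detected, at a summed 11417 to 13002 CPM over all 6 libraries. Pecam1 read 1181 to 1453 CPM. Single markers varied more than the sum, and Cldn5 ran from 44.0 CPM in control 1 to 275 CPM in Axin1 library 2. Of the 16, 2 lay wholly higher in the Axin1 libraries and 2 wholly lower, beside 11.3% and 12.4% of all tested genes. Markers of other cells were present at lower and uneven sums. Those of pericytes, smooth muscle and mesenchyme lay at 68.3 to 215 CPM, those of neural cells at 290 to 476 CPM and those of macrophages and microglia at 270 to 2795 CPM. Erythroid markers lay at 243 to 3030 CPM and those of megakaryocytes and platelets at 715 to 2482 CPM. Markers of leptomeninges, choroid plexus and fenestrated vessels lay at 3586 to 3709 CPM in the controls and 2857 to 3153 CPM in the Axin1 libraries. Within that list Aplnr (means 1991 and 1514.5 CPM, controls first) and Igf2 (1553 and 1256 CPM) made up most of the sum. The choroid plexus markers Ttr, Kl and Folr1 read at most 1.04 CPM in any library. Which cells gave the Aplnr and Igf2 reads was not tested, so this sum is no measure of other cells. In bulk RNA, fewer cells of a type and less RNA per cell cannot be told apart.

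Per unit of transcript length, Ptrf was the most abundant of the 9 in both groups. In RPKM (reads per kilobase of transcript and depth of library, as deposited) Ptrf stood at 326 ± 39.9 in the controls and 340 ± 32.8 in the Axin1 libraries (SD, n = 3 each), at percentiles 97.1 to 98.0 of all tested genes over the 6 libraries. Cavin-1 is the coat protein without which caveolae do not form. Ehd2 followed at 184 ± 29.4 and 187 ± 24.7 RPKM, and Cav1, which encodes the caveolin required for caveolae, at 111 ± 36.8 and 110 ± 15.9 RPKM. Plvap came 4th at 62.0 ± 4.27 and 78.6 ± 13.3 RPKM, Cav2 5th at 48.3 ± 16.2 and 59.3 ± 6.66 RPKM, and Dnm2 6th at 41.2 ± 1.73 and 47.7 ± 5.19 RPKM. Sdpr, Pacsin2 and Prkcdbp were lowest, at 22.7 ± 3.63, 18.2 ± 0.735 and 15.6 ± 1.28 RPKM in the controls. They stood at 29.9 ± 13.4, 21.9 ± 3.83 and 17.8 ± 0.349 RPKM in the Axin1 libraries. The order of means was the same in both groups. Within the controls, the ranges of Ehd2 and Cav1, of Plvap and Cav2, of Cav2 and Dnm2, and of Sdpr and Pacsin2 overlapped. Within the Axin1 libraries those of Cav1 and Plvap, of Sdpr and Pacsin2, and of Sdpr and Prkcdbp did so. In Axin1 library 1 Sdpr (15.1 RPKM) lay below Prkcdbp (18.0 RPKM).

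**Figure D1:**
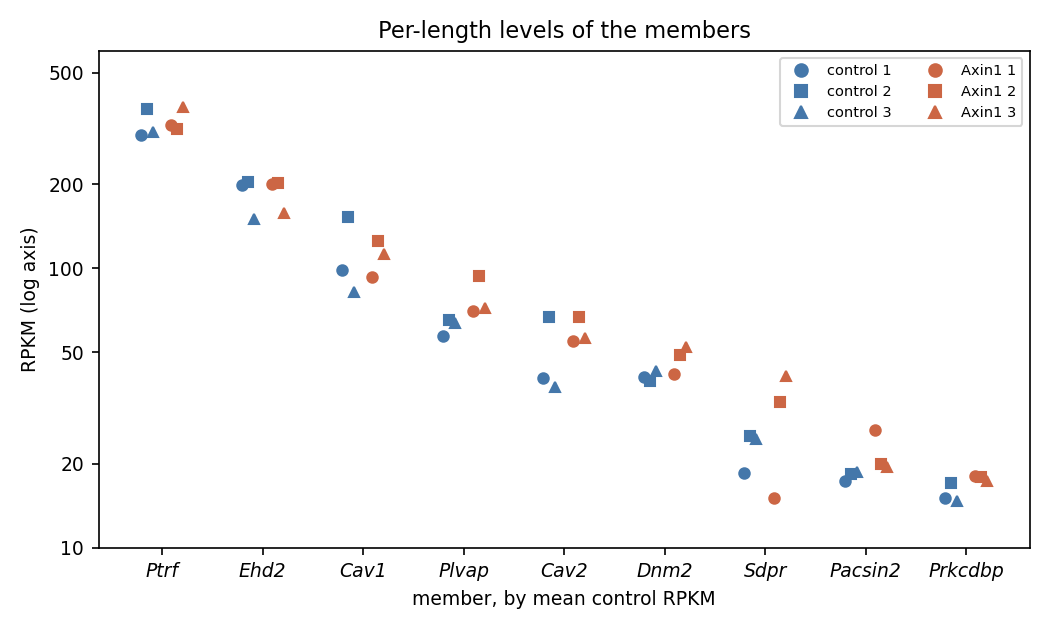
RPKM on a log axis (vertical) of each of the 9 genes (horizontal, ordered by the control mean), 1 point per library, controls in blue and Axin1 libraries in orange. Ptrf lies between 299 and 377 RPKM in all 6 libraries, and Prkcdbp, the lowest by mean, between 14.7 and 18.0.

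The cavin transcripts were dominated by Ptrf in every library. Ptrf made up 86.1% to 90.8% of the summed RPKM of the 3 cavins among the 9 genes, Sdpr 4.22% to 9.46% and Prkcdbp 3.99% to 5.02%. Ptrf was 2.44 to 3.73 times as abundant as Cav1 by RPKM, and the groups overlapped in this ratio.

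None of the 9 genes passed the test for a difference between the groups, with confidence intervals that ran from 0.726-fold to 2.33-fold for Sdpr, the widest, and from 0.851-fold to 1.25-fold for Ptrf. At an adjusted p of 0.05 (edgeR quasi-likelihood, adjusted by Benjamini and Hochberg over all tested genes) 0 of the 9 were called, against 0.845% of all tested genes, 0.355% higher and 0.490% lower. Of the 9, 1 (Plvap) had an unadjusted p under 0.05, as did 17.2% of all tested genes (9.06% in the higher direction). DESeq2 also called 0 of the 9 (1 at an unadjusted p under 0.05), against 6.58% of the genes it could adjust. Log2 fold changes were positive for 8 of the 9, from 0.004 for Ehd2 to 0.38 for Sdpr, and -0.03 for Cav1. Their median was 0.20, beside 0.02 over all tested genes. Scaling the libraries by the mean log2 level of pan-endothelial markers instead moved the median of all genes to -0.24 and left 3 of the 9 positive (Plvap, Cav2 and Sdpr). All Axin1 libraries exceeded all controls for 3 of the 9 (Plvap, Pacsin2 and Prkcdbp), and 0 of the 9 lay wholly lower. Over all tested genes the groups were apart for 23.8%, with 11.3% wholly higher and 12.4% wholly lower.

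**Figure D2:**
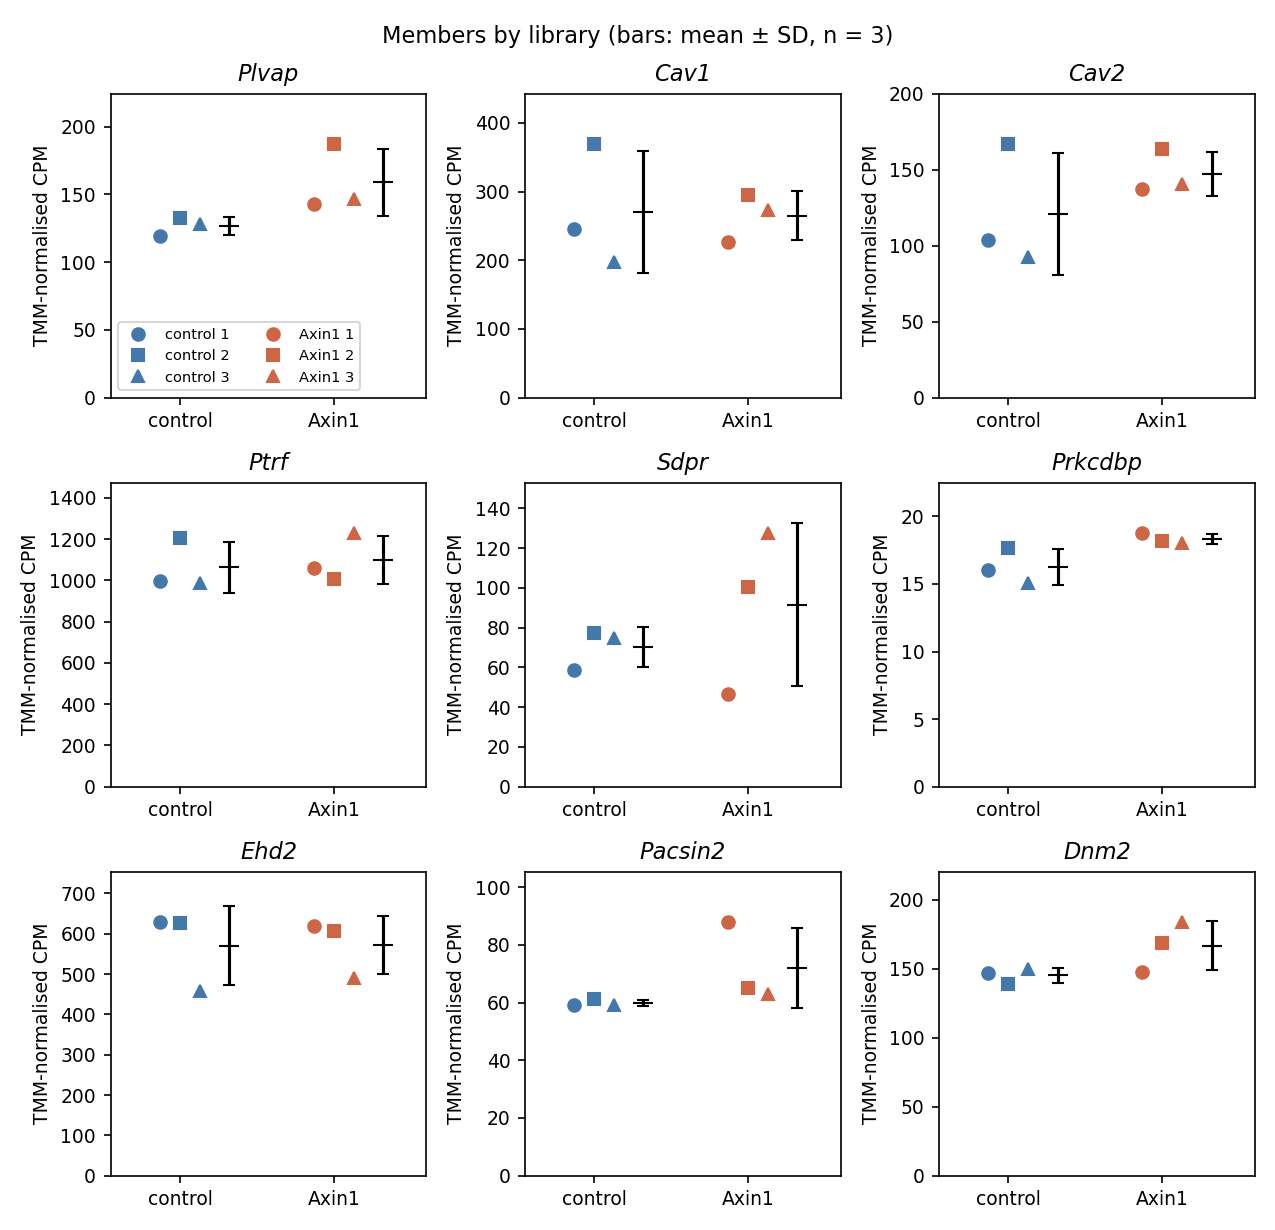
TMM-normalised CPM (vertical, from 0) of each gene by group, 1 point per library, with mean ± SD (n = 3) beside the points. The groups are apart for Plvap, Prkcdbp and Pacsin2 and overlap for the other 6 genes.

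Plvap read 119, 133 and 128 CPM in controls 1, 2 and 3 and 143, 187 and 147 CPM in Axin1 libraries 1, 2 and 3. The controls lay close together, within 1.11-fold of each other, and Axin1 library 2 stood above the other libraries of its group. The 1.25-fold difference (log2 0.33, SE 0.13, 95% confidence interval 0.03 to 0.62) had an edgeR unadjusted p of 0.0357 and an adjusted p of 0.253, so it did not pass the test. Without Axin1 library 2 the log2 fold change was 0.19 (edgeR adjusted p 0.542). Set against Pecam1 within each library, the Plvap to Pecam1 ratio of RPKM was 0.152, 0.148 and 0.174 in the controls and 0.175, 0.258 and 0.196 in the Axin1 libraries. The groups did not overlap, but control 3 and Axin1 library 1 almost touched. The log2 ratio was higher by 0.39 in the Axin1 libraries, at a two-sided exact permutation p of 0.10, the smallest that 3 against 3 allows (adjusted over 4 ratios 0.20). Other endothelial references gave smaller differences. Scaled by the mean log2 level of pan-endothelial markers, the log2 fold change of Plvap was 0.05 (edgeR adjusted p 0.873). This scaling moved the median of all tested genes to -0.24. Plvap lay 0.29 above that median, beside 0.31 above the median with TMM factors. Scaled by the summed counts of the pan-endothelial markers, the log2 fold change of Plvap was 0.29 (edgeR adjusted p 0.331).

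Among 4238 other tested genes with a mean of at least 50 CPM, those whose log2 CPM over the 6 libraries ran most like Plvap were Rap2b, Tmem55a and Prnd. Rap2b encodes a Ras-family GTPase, Tmem55a a phosphoinositide phosphatase and Prnd the prion-like protein doppel. Their Pearson r was 0.97, 0.94 and 0.94, with a Spearman rho of 1 for each, given as a description of 6 shared libraries. Prnd ran from 241 CPM in control 1 to 633 CPM in Axin1 library 2 (log2 fold change 0.86, edgeR adjusted p 0.0531). None of these 3 passed the test.

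Cav1 read 245, 369 and 197 CPM in the controls and 226, 296 and 274 CPM in the Axin1 libraries. The controls spanned 1.87-fold and enclosed all 3 Axin1 libraries. The log2 fold change was -0.03 (SE 0.23, 95% confidence interval -0.56 to 0.51, edgeR adjusted p 0.967), an interval that runs from 0.676-fold to 1.42-fold. Without control 2, the library with the highest Cav1, the sign turned (log2 0.26, edgeR adjusted p 0.564). It also turned without Axin1 library 1 (0.07). The genes most like Cav1 by the same measure were the deoxycytidine kinase gene Dck, the calcitonin receptor-like gene Calcrl and the interferon gamma receptor gene Ifngr1, at a Pearson r of 0.99, 0.97 and 0.95 (Spearman rho 1, 0.94 and 1).

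Cav2, the partner that joins Cav1 in hetero-oligomers, read 104, 167 and 92.6 CPM in the controls and 137, 164 and 141 CPM in the Axin1 libraries. Control 2 was the highest of all 6, as it was for Cav1, and controls 1 and 3 were below every Axin1 library. The log2 fold change was 0.28 (SE 0.22, 95% confidence interval -0.22 to 0.79, edgeR adjusted p 0.561). Without control 2 it was 0.58 (edgeR unadjusted p 0.00422, adjusted p 0.237). It was 0.18 without control 1 and 0.11 without control 3.

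Although both caveolins varied between libraries, their ratio within a library varied less. The Cav1 to Cav2 ratio of RPKM was 2.43, 2.28 and 2.20 in controls 1, 2 and 3 and 1.70, 1.87 and 2.01 in Axin1 libraries 1, 2 and 3. All Axin1 libraries lay below all controls. The log2 ratio was 1.20 ± 0.07 in the controls and 0.89 ± 0.12 in the Axin1 libraries (SD, n = 3 each), lower by 0.31, at a two-sided exact permutation p of 0.10, the smallest that this design allows (adjusted over 4 ratios 0.20). With 1 library left out the difference lay between -0.37 and -0.25. For Cav1 to Ptrf (0.329, 0.410 and 0.268 against 0.286, 0.395 and 0.299) and Plvap to Cav1 (0.581, 0.428 and 0.774 against 0.751, 0.752 and 0.637) the groups overlapped, at exact permutation p values of 0.90 and 0.40.

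**Figure D3:**
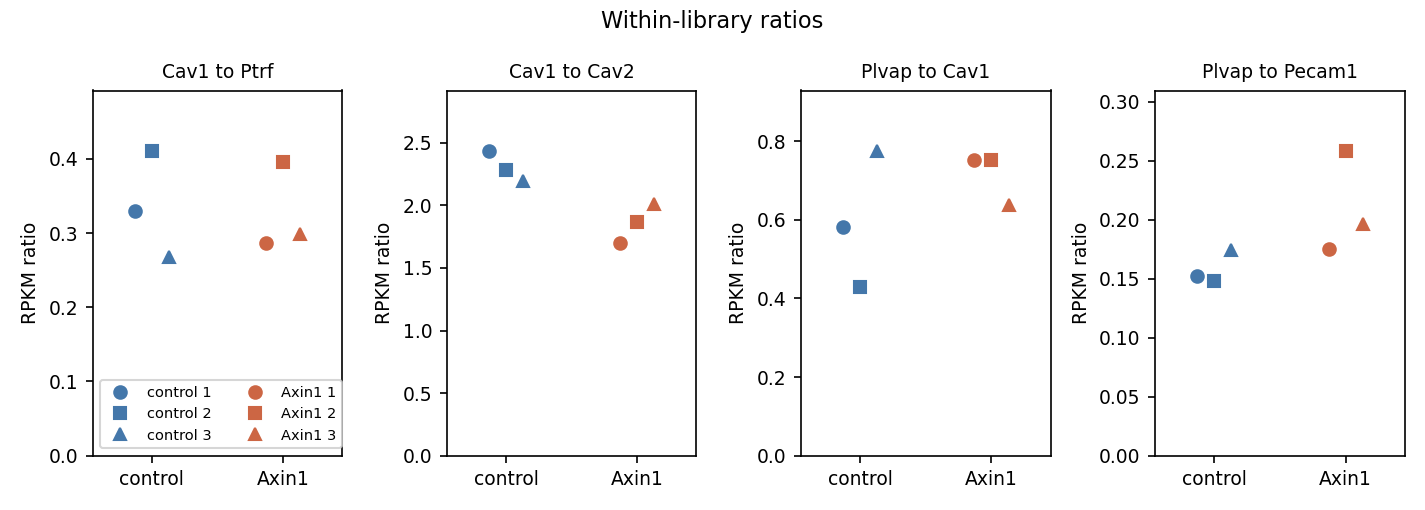
Ratio of RPKM within each library (vertical, from 0) for 4 gene pairs by group, 1 point per library. Cav1 to Cav2 runs from 2.20 to 2.43 in the controls and from 1.70 to 2.01 in the Axin1 libraries, while Cav1 to Ptrf and Plvap to Cav1 overlap.

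Cav1 and Cav2 are next to each other on chromosome 6 among the protein-coding genes of the RefSeq annotation of GRCm38.p6. The 250 bases before their annotated starts are shown because the caveolins were high and low in the same controls. That of Dnm2 is shown because, of the 7 genes searched, it was the one that held a TCF/LEF word, TCF/LEF factors being the DNA-binding partners of beta-catenin. Capitals mark any such word on either strand, namely CTTTGAA or its variants that end in AT, TA or TT. They also mark GC boxes, spelled GGGCGG and read as CCGCCC where they lie on the minus strand. The sequences are RefSeq's in the build GRCm38.p6 and all lie on the plus strand, Cav2 at chr6:17280935-17281184, Cav1 (the first of its 2 annotated starts) at chr6:17306085-17306334 and Dnm2 at chr9:21424658-21424907.
Cav2: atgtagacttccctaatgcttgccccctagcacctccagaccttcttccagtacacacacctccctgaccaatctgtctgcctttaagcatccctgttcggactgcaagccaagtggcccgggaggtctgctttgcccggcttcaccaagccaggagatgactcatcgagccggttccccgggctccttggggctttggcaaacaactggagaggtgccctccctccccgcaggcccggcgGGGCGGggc
Cav1: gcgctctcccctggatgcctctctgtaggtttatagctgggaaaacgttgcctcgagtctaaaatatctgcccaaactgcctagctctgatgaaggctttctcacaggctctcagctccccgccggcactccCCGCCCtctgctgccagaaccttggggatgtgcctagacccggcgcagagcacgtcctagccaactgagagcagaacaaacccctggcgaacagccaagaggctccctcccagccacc
Dnm2: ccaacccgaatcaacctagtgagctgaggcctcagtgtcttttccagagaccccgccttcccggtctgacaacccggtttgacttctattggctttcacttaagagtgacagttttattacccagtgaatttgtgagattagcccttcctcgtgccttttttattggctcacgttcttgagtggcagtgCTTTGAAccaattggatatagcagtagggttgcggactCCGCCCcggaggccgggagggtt
Windows were used for 7 of the 9 genes, with 11 annotated starts, and those of Plvap and Prkcdbp were not searched. A TCF/LEF word occurred before 1 of the 11 starts and before 14.8% of 32851 windows of all genes. In Dnm2 it begins 61 bases before the start. A GC box occurred before 7 of the 11 starts, in 6 of the 7 genes, and before 32.7% of all windows. The windows of the 2 Ptrf starts overlap and hold the same box. The words describe these letters only.

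Ptrf read 996, 1206 and 987 CPM in the controls and 1060, 1004 and 1228 CPM in the Axin1 libraries. The groups overlapped throughout, and the log2 fold change was 0.05 (SE 0.12, 95% confidence interval -0.23 to 0.32, edgeR adjusted p 0.889). Its interval, from 0.851-fold to 1.25-fold, was the narrowest of the cavins. The sign turned without control 1 (-0.003), control 3 (-0.02) or Axin1 library 3 (-0.04).

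Sdpr, a cavin that binds phosphatidylserine and is known from platelets as well as endothelium, read 58.7, 77.4 and 74.9 CPM in the controls and 46.8, 100.4 and 127 CPM in the Axin1 libraries. Axin1 library 1 was the lowest of all 6 and Axin1 library 3 the highest, a 2.73-fold span within 1 group and the widest of the 9 genes. The log2 fold change was 0.38 (SE 0.35, 95% confidence interval -0.46 to 1.22, edgeR adjusted p 0.639). It was 0.69 without Axin1 library 1 (edgeR unadjusted p 0.00337, adjusted p 0.114) and 0.07 without Axin1 library 3. Markers of macrophages and of platelets were low and high in the same Axin1 libraries. Summed macrophage and microglia markers read 536, 918 and 485 CPM in controls 1, 2 and 3 and 270, 1336 and 2795 CPM in Axin1 libraries 1, 2 and 3. All 13 of these markers were highest in Axin1 library 3, 12 of the 13 were lowest in Axin1 library 1, and none was at 0 in any library. Summed megakaryocyte and platelet markers read 1581, 1499 and 1612 CPM in the controls and 715, 1901 and 2482 CPM in the Axin1 libraries. Of these 10 markers, 9 were highest in Axin1 library 3 and 9 lowest in Axin1 library 1, again with none at 0. Erythroid markers were also lowest in Axin1 library 1, at a summed 243 CPM, but their highest sum was in control 3 (3030 CPM, against 2658 CPM in Axin1 library 3). Of these 9 markers 5 were highest in Axin1 library 3, and Hba-a1 was at 0 in all libraries. The part of these cells in the Sdpr values was not tested.

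**Figure D4:**
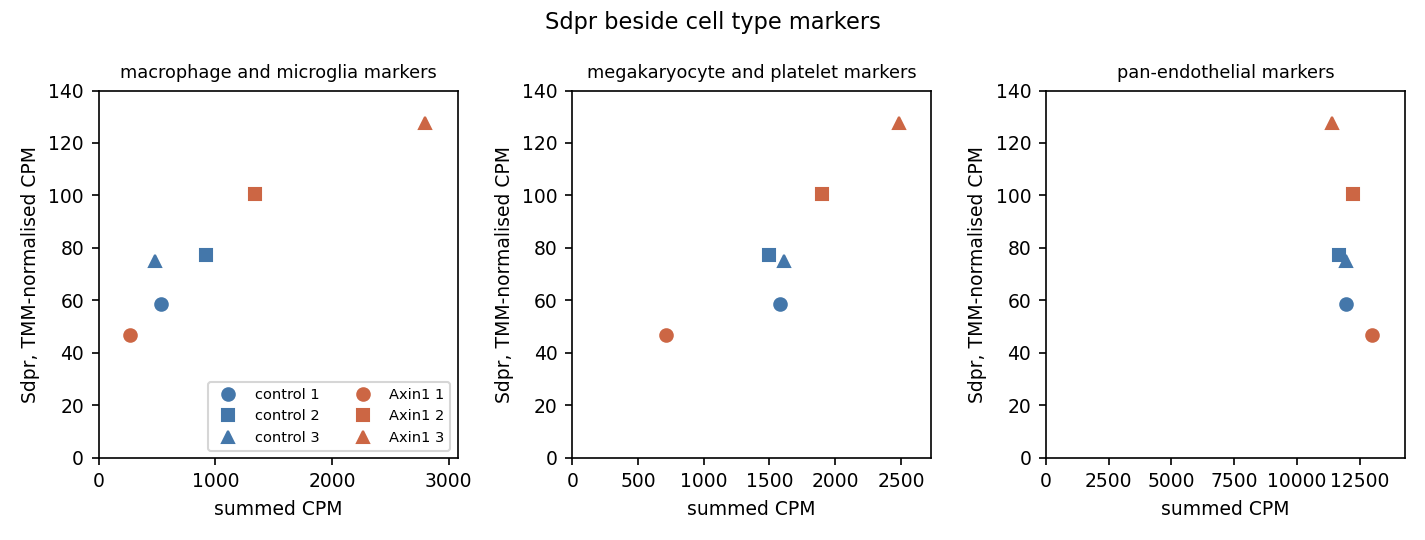
Sdpr in TMM-normalised CPM (vertical) against the summed CPM of 3 marker lists (horizontal), 1 point per library. Axin1 library 1 (46.8 CPM of Sdpr) has the lowest macrophage and platelet marker sums and Axin1 library 3 (127 CPM) the highest. The pan-endothelial sum is highest in Axin1 library 1 (13002 CPM) and lowest in Axin1 library 3 (11417 CPM).

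Prkcdbp, the cavin that binds protein kinase C delta, read 16.0, 17.7 and 15.1 CPM in the controls and 18.8, 18.2 and 18.0 CPM in the Axin1 libraries, from 164 to 264 reads a library. The Axin1 libraries lay above all controls but by little over control 2. The log2 fold change was 0.17 (SE 0.16, 95% confidence interval -0.20 to 0.55, edgeR adjusted p 0.643). In the reference annotation its exons overlap a predicted gene on the opposite strand, and those of Dnm2 overlap Tmed1, so both counts are uncertain if strand was not used.

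Ehd2 read 628, 625 and 458 CPM in the controls and 620, 607 and 489 CPM in the Axin1 libraries. The third library of each group was low and the other 4 lay within 607 to 628 CPM, so the spread lay within the groups and not between them. The log2 fold change was 0.004 (SE 0.15, 95% confidence interval -0.34 to 0.35, edgeR adjusted p 0.995). With library 3 of the controls left out it was -0.15, and with that of the Axin1 group left out it was 0.10.

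Pacsin2 read 59.2, 61.1 and 59.3 CPM in the controls, the tightest group of any of the 9 genes (coefficient of variation 1.82%). It read 87.9, 64.9 and 62.9 CPM in the Axin1 libraries, so the difference lay mostly in Axin1 library 1. The log2 fold change was 0.26 (SE 0.15, 95% confidence interval -0.08 to 0.61, edgeR adjusted p 0.414), and 0.09 without Axin1 library 1. That library also had the highest pan-endothelial sum (13002 CPM). Its platelet, macrophage and erythroid sums were the lowest of all libraries (715, 270 and 243 CPM). The part of these cells in the Pacsin2 values was not tested. Dnm2 read 147, 139 and 150 CPM in the controls and 148, 169 and 184 CPM in the Axin1 libraries. Axin1 library 1 lay among the controls and libraries 2 and 3 lay above them. Libraries 2 and 3 of the Axin1 group also had the highest summed macrophage (1336 and 2795 CPM) and platelet markers (1901 and 2482 CPM), whose part in the Dnm2 values was not tested. Its log2 fold change was 0.20 (SE 0.11, 95% confidence interval -0.06 to 0.46, edgeR adjusted p 0.418).

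**Figure D5:**
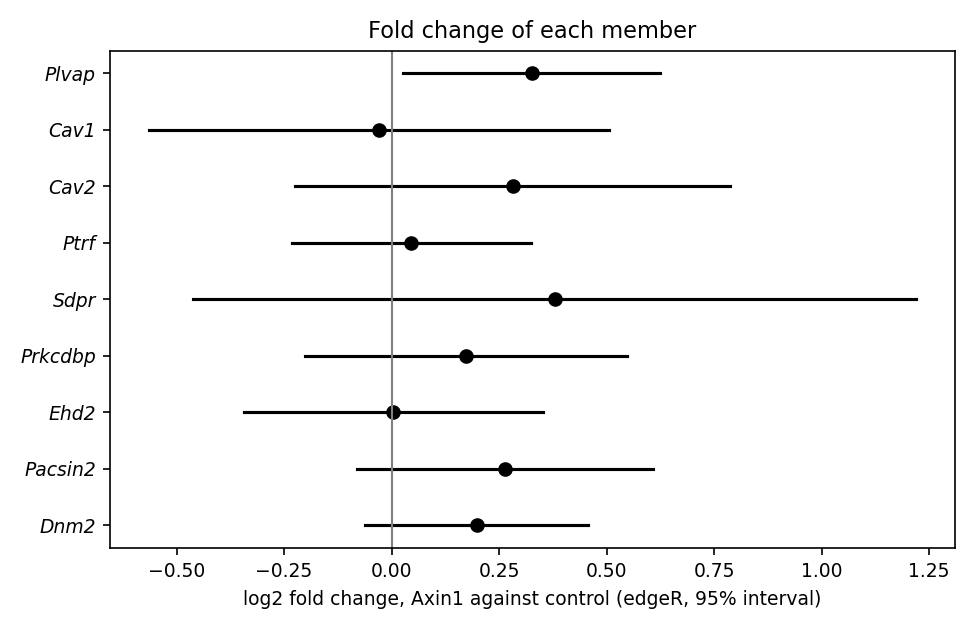
Log2 fold change of each gene, Axin1 against control (horizontal), as points with 95% confidence intervals from edgeR. The interval of Plvap (0.03 to 0.62) lies just above 0 without adjustment for the other genes tested, and those of the other 8 genes include 0.

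No library was high or low for all 9 genes. Control 3 was the lowest library for 5 of them and the highest for 0, and Axin1 library 3 was the highest for 3 and the lowest for 0. Control 2 was the highest for Cav1 and Cav2 and the lowest for Dnm2.

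Paralogs and further scaffold genes of caveolae and rafts did not pass the test either: 0 of 8 tested genes rose or fell by edgeR (4 at an unadjusted p under 0.05), with a median log2 fold change of 0.22. Over all tested genes 17.2% had an unadjusted p under 0.05, and the median log2 fold change was 0.02. Ehd1, the EHD2 relative that acts in endocytic recycling, read 38.1, 41.4 and 75.4 CPM in the controls and 93.6, 109 and 161 CPM with Axin1. Its log2 fold change was 1.23 (SE 0.32), at an edgeR adjusted p of 0.133. The groups were apart, and control 3 was the highest control. DESeq2 called Ehd1 and so did edgeR without control 3. Ehd3 went from 64.5 ± 2.62 to 47.1 ± 7.26 CPM (SD, n = 3; log2 -0.45), and the flotillin gene Flot2 from 19.5 ± 3.74 to 30.5 ± 2.60 CPM (log2 0.65), with edgeR adjusted p values of 0.167 and 0.139. The muscle caveolin Cav3 had no read in any library, and Pacsin1 and Dnm1 were below the filter.

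Of 19 tested genes of clathrin-mediated endocytosis, the other main vesicle route from the surface, 0 rose or fell by edgeR. An unadjusted p under 0.05 was found for 7 of the 19, and for 17.2% of all tested genes. The median log2 fold change was 0.16, beside 0.02 over all tested genes. The clathrin light chain gene Clta went from 42.0 ± 1.05 to 70.1 ± 17.4 CPM, a log2 fold change of 0.74 (adjusted p 0.105 by edgeR). The phosphoinositide phosphatase gene Synj1, which acts in uncoating, had a log2 fold change of 0.48 and the AP-2 adaptor gene Ap2a2 one of -0.36 (edgeR adjusted p 0.126 and 0.156). DESeq2 called Clta, and edgeR without control 3 called Sh3gl1, the endophilin A2 gene (log2 0.72), which was singled out after its values were seen.

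Of 19 tested partners of caveolin and Plvap and regulators of vessel permeability and vesicle traffic, 1 rose and 0 fell, with a median log2 fold change of 0.03. An unadjusted p under 0.05 was found for 4 of the 19 by edgeR. Over all tested genes 0.845% were called and 17.2% had an unadjusted p under 0.05. The gene that rose was Rab11a, the GTPase of recycling endosomes. It read 102, 126 and 128 CPM in the controls and 209, 286 and 260 CPM in the Axin1 libraries, with the groups well apart (log2 1.09, SE 0.15, edgeR adjusted p 0.0347). With control 1 or 2 left out its edgeR adjusted p was 0.116 or 0.199, and with Axin1 library 2 or 3 left out it was 0.146 or 0.0688, while the log2 fold change stayed between 0.98 and 1.20. The call of Rab11a also ended with either form of pan-endothelial scaling and with limma. A predicted gene overlaps its exons on the same strand, which leaves its count uncertain. The kinase gene Src, whose product phosphorylates caveolin-1, went from 26.6 ± 3.53 to 16.3 ± 0.370 CPM, a log2 fold change of -0.71 (adjusted p 0.0916 by edgeR). Mfsd2a, a lipid transporter gene known to restrain caveolar transcytosis at the blood-brain barrier, went from 25.8 ± 14.9 to 5.89 ± 4.21 CPM. Its log2 fold change was -2.13 with an SE of 0.72 (adjusted p 0.222 by edgeR). DESeq2 called Rab11a, Src and Mfsd2a of this list, against 6.58% of all genes it could adjust.

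The marker list of leptomeninges, choroid plexus and fenestrated vessels had 4 tested genes of 7, of which 1 rose and 0 fell. Over all tested genes 0.845% were called, and 12.4% lay wholly lower in the Axin1 libraries. The gene of this list that rose was Esm1, which encodes endocan (log2 0.89, adjusted p 0.0421 by edgeR). Of the other tested genes, Aplnr and Igf2 lay wholly lower in the Axin1 libraries (log2 -0.39 and -0.31) but did not pass, at edgeR adjusted p values of 0.118 and 0.156, and 3 of the 4 had an unadjusted p under 0.05. With a library left out the adjusted p of Esm1 stayed under 0.05 only for control 3, at 0.0211, and reached 0.199 for control 2. The call also ended without the robust option (0.0533), with pan-endothelial scaling or its summed form (0.0915 and 0.0525) and with limma (0.0560 and 0.0590). The choroid plexus markers Ttr, Kl and Folr1 stayed below the filter. None of the other 6 marker lists had a gene that passed edgeR's test. At an unadjusted p under 0.05 there were 4 of 16 pan-endothelial genes, 1 of 10 megakaryocyte and platelet genes, and 0 genes each of pericytes and mesenchyme, macrophages, neural cells and erythroid cells. Over all tested genes the share was 17.2%.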

How the data were processed

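RNA of 3 control and 3 Axin1-overexpressing samples of sorted endothelial cells, reverse transcribed and amplified with a SMARTer kit for very small inputs (per the labels' protocols), was analysed from 6 tables, 1 per library. Each table as deposited gives a read count and an RPKM value per RefSeq gene entry, per the file headers. Bowtie and mm9 are named per the submitters' processing notes. Versions, the counting tool, and its handling of strand and of multiply matched reads: none of these is stated in the sources at hand. Libraries were compared with edgeR 4.0.16 in R 4.3.3 (filterByExpr with a minimum count of 10 and a total of 15, TMM, robust quasi-likelihood test, Benjamini-Hochberg adjustment over 12661 genes, threshold 0.05). TMM factors ran from 0.975 to 1.021. Dispersion over all genes corresponded to 25.35% variation between replicates, and no 2 libraries were near-identical. DESeq2 1.42.0, limma 3.58.1 on log2(RPKM + 1) and log2(RPKM + 0.1), other scalings and filters and leaving out each library were alternatives, 17 planned and 2 added after seeing the data. The 4 ratios of RPKM were compared by exact permutation tests on log2 ratios. The fit was tested on simulated data. The members and the 10 gene lists were chosen with earlier results of these data known. All members are named, with the 3 genes of smallest p and those called in each related list. The 3 genes most like Plvap and Cav1 are named too. Esm1, Sh3gl1, Vamp3, Eng and Murc were chosen after their values were seen. Depth of 10772492 to 14234409 reads gave at least 164 reads for every member. Promoter windows and exon overlaps were read from RefSeq and GENCODE tables of GRCm38, another build than the files', so no coordinates of mm9 are given.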

Additional observations from a re-analysis of the deposited data

How the results depend on the processing

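Over 19 alternatives, 17 planned and 2 chosen after seeing the data (scaling to summed pan-endothelial counts, and the 4 libraries with shared title numbers without a block), 0 of the 9 genes was called in any. Plvap, Cav2 and Sdpr stayed positive in all 19, but as low as 0.05, 0.02 and 0.03. The lowest for Plvap (edgeR adjusted p 0.873) and Cav2 came with pan-endothelial scaling and for Sdpr with the title-number block. Over all genes, 107 calls became 720 with DESeq2, 28 with summed pan-endothelial scaling, 197 without a filter, 51 without the robust option and 14 with limma at either pseudocount. Leaving out 1 library gave 0 to 695 calls, 0 without control 2 or Axin1 library 2 (1539 and 1733 genes at an unadjusted p under 0.05) and 695 without control 3. Caveola paralogs had 1 call with DESeq2 (Ehd1) and 0 to 1 with a library left out. Clathrin genes had 1 with DESeq2 (Clta) and 0 to 1 with a library left out. Partner genes had 3 with DESeq2, 0 with either pan-endothelial scaling and with limma at either pseudocount, and 0 to 2 with a library left out. Several signs turned. Cav1 was 0.0295 and 0.0300 with limma at pseudocounts of 1 and 0.1 and ranged from -0.22 to 0.26 with a library left out. Ptrf was -0.20 with pan-endothelial scaling and ranged from -0.0425 to 0.145 with a library left out. Under pan-endothelial scaling Prkcdbp was -0.0916, Pacsin2 -0.0091 and Dnm2 -0.0557, where the median of all genes moved to -0.24 from 0.02. Ehd2 was -0.0041 with DESeq2 and with RLE factors, -0.0355 with upper-quartile factors, -0.278 with pan-endothelial scaling, -0.0441 with its summed form, -0.0034 without a filter, and -0.15 to 0.10 with a library left out. The log2 ratio of Cav1 to Ptrf ranged from -0.18 to 0.12 with a library left out. The cause of these shifts was not tested. Prkcdbp had the fewest reads, 164 to 264 a library.

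The description numbers were not taken to pair the libraries. Deviations of same-numbered libraries correlated at 0.239, 0.147 and -0.066, and not every library correlated best with its own number. The first 2 of these pairs also share title numbers. With 3 libraries a group, such correlations cannot decide whether the libraries are paired. With these numbers as a replicate block 105 genes were called over all, 1 paralog (Ehd1) and 2 partners (Rab11a and Mfsd2a), and Cav1 was 0.01. The titles share 2 numbers (correlation of differences 0.356), with no statement of what they mark. With them as a block in 4 libraries 1500 genes were called, 3 paralogs (Ehd1, Ehd3 and Flot2), 1 clathrin gene (Sh3gl1) and 4 partners (Vamp3, Eng, Rab11a and Mfsd2a), with Ptrf at -0.0912, Ehd2 at -0.035 and Plvap at 0.37 (edgeR adjusted p 0.0682, its lowest). The same 4 libraries without the block gave 512 calls, 1 paralog, 1 clathrin gene and 2 partners, with Ptrf at -0.0968 and Ehd2 at -0.035. The block called 0 of the 9 genes in either form.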
